A study of Mus musculus with 6 samples.

Results

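Laminins are the secreted proteins from which basement membranes, the thin matrix sheets under epithelia, around muscle cells and around vessels, are built. Each laminin molecule is a trimer of an alpha, a beta and a gamma chain, named by the numbers of its chains, so that laminin-521 holds the alpha 5, beta 2 and gamma 1 chains. The alpha chain carries the globular domains that bind integrins and dystroglycan on the cell surface, and the gamma 1 chain binds nidogen, which links laminin to the collagen IV network. In heart and vessels, laminins with alpha 2 surround cardiomyocytes, and laminins with alpha 4 and alpha 5 lie under endothelium. The mRNA of 9 chains was followed here, Lama1 to Lama5, Lamb1 to Lamb3 and Lamc1, which were chosen by name from the 54532 genes of the table.

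The cells were immortalized cardiosphere-derived cells (iCDCs) of C57BL/6 mice, labelled as heart ventricle. The methods of the study describe their origin in epicardium of 6-week-old animals, their transduction with a lentivirus for human telomerase reverse transcriptase and their selection with puromycin, and do not call the line a clone. The 3 control libraries were from iCDCs at passage 30. The 3 induced libraries were from iCDCs of passage 30 that the labels describe as given 10 µM 5-azacytidine, a cytidine analogue that blocks DNA methyltransferases and has been used to push cells towards a cardiac fate, for 3 days and then kept for 4 weeks in IMDM with 2% serum. The methods describe a shorter later culture in another medium and do not say how long or in which medium the sequenced control cells were kept, so drug, serum and time in culture cannot be told apart. The methods speak of biological replicates for their comparisons of libraries, but give 2 per condition where 3 were deposited. The labels name separate samples but not separate cultures, and p-values therefore measure the spread between these samples, which may be technical.

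Total counts were 19041133 to 19823369 per library. Marker genes of the labelled tissue and of other cell types were read first. The 7 cardiomyocyte markers summed to 12.9 to 16.1 CPM (read counts scaled to a common library size) in control libraries. In induced libraries the sum was 60.0 to 63.7 CPM, and most of it was Tnnt2 in both groups. Myh6 and Myl2 had 0 or 1 read in each library. Tnnt2 and Myl7 were called higher, and Tnni3 did not pass the threshold. Myl7 had 0 reads in control and 34, 20 and 20 in induced libraries, so that it was tested only through the induced libraries. Ryr2 and Actn2 were too scarce to be tested. Ryr2 had 1 read in control and 29 in induced libraries, and Actn2 0 and 8, all in induced replicate 2. The 6 endothelial markers summed to at most 0.943 CPM in any library, and the 4 leukocyte markers had 0 reads in all 6. Of 4 Schwann cell markers, whose sums were 5.06 to 6.08 CPM in control and 1.62 to 2.31 CPM in induced libraries, Sox10 had 0 reads. Of 6 mesothelial or epicardial markers, 5 were higher and Krt19 was lower in induced cells, with sums of 719 to 740 CPM in control and 2861 to 2971 CPM in induced libraries. The 6 fibroblast markers summed to 15502 to 16216 CPM in control and 17233 to 18468 CPM in induced libraries, most of it Col1a1 and Col1a2. Of these markers, 4 were higher (Dcn, Tcf21, Thy1 and Col1a2) and 2 lower (Pdgfra and Col1a1) in induced cells. The 5 smooth muscle markers summed to 1029 to 1085 CPM in control and 634 to 700 CPM in induced libraries. Most of the smooth muscle sum was Acta2, which fell together with Cnn1, while Myh11 and Smtn rose and Tagln did not pass the threshold. The part of these shifts in the results below was not tested. In bulk RNA, fewer cells of a type and less RNA per cell cannot be told apart.

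The question was which laminin chains the cells transcribed before and after induction. Of the 9 chains, 5 had at least 10 CPM on average, namely Lamc1, Lama5, Lamb2, Lamb1 and Lama4, and of these Lamc1, Lama5 and Lamb2 rose and Lamb1 and Lama4 fell. With the low chains Lama2, Lama3 and Lamb3, which were higher, 6 chains were called higher and 2 lower (quasi-likelihood test of edgeR, adjusted after Benjamini and Hochberg over the 14246 genes tested). Among all genes tested, 64.8% were called, 32.6% higher and 32.2% lower, so that a call as such was common here. The 2-fold mark, which 17.1% of all genes passed together with the threshold, was passed by 6 chains, namely Lama2, Lama3, Lama4, Lamb1, Lamb2 and Lamb3. Without control replicate 2, Lama2 was just under this mark (log2 fold change 0.98). Lama1 did not pass the filter on low counts. Lama3 and Lamb3 passed it only through the induced libraries, so that they had to differ in order to be tested. Summed over the 9 chains, laminin reads were 1869 to 1932 CPM in control and 2231 to 2415 CPM in induced libraries.

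Lamc1 encodes the gamma 1 chain, the partner of most alpha and beta chains. It lies on chromosome 1, 153218922 to 153332786, minus strand. Its counts scaled to the library were 526.3, 510.1 and 515.7 CPM in the control libraries and 747.1, 796.5 and 714.4 CPM in the induced libraries. All induced libraries lay above all control libraries, and Lamc1 was 1.45-fold higher (log2 fold change 0.54, SE 0.05, edgeR adjusted p 8.18e-09). Lamc3, which encodes the gamma 3 chain and was outside the 9, is given beside it (chromosome 2, 31887291 to 31946539, plus strand). Its level was higher in induced cells, at 13.0 ± 0.609 against 5.34 ± 0.506 CPM (SD, n = 3), and 6.27% of its exon bases overlap a gene on the opposite strand. Per length, Lamc1 held 96.8 ± 0.119% of the summed gamma chain level in control and 96.4 ± 0.0340% in induced libraries (SD, n = 3).

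**Figure D1:**
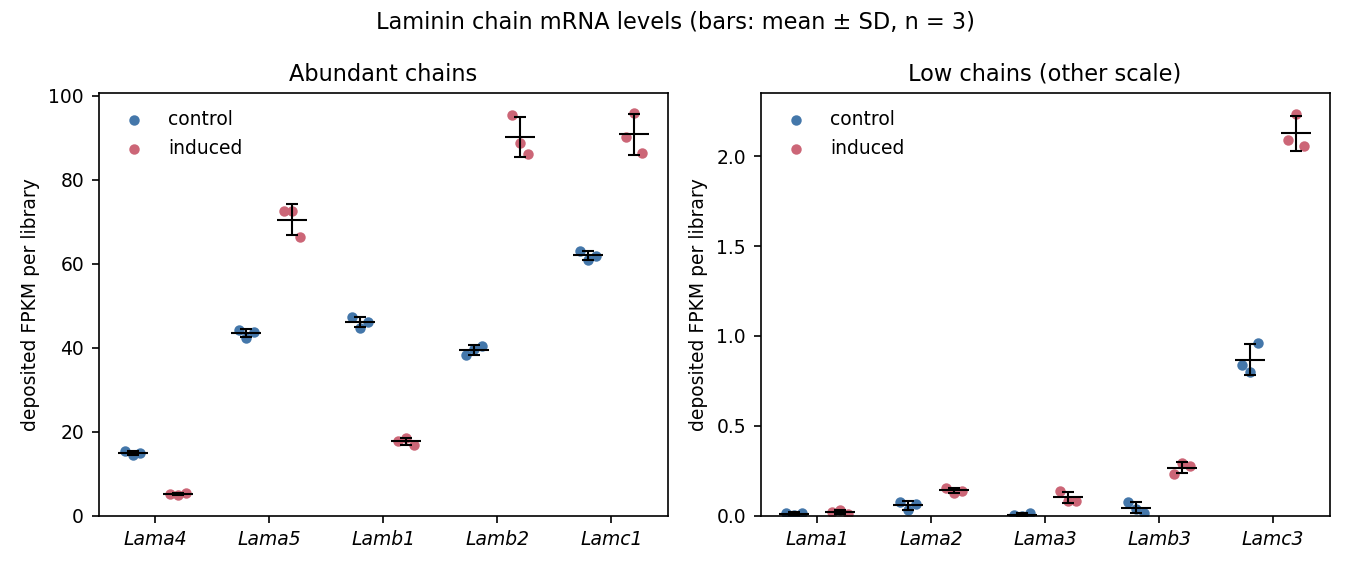
Deposited FPKM (fragments per kilobase, scaled to depth) of each laminin chain in each library, with 5 abundant chains on the left and 5 low chains on the right on a smaller scale. Blue points are control and red points induced libraries, and black bars give the mean ± SD over 3 libraries. Lama4 and Lamb1 were lower in induced cells, from 14.9 to 5.12 and from 46.0 to 17.7 FPKM, while Lama5, Lamb2 and Lamc1 were higher.

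The alpha chains decide which receptors a laminin can bind. Lama5 encodes the alpha 5 chain, the largest alpha chain and the main one of adult epithelial and vascular basement membranes. It lies on chromosome 2, 180176373 to 180225859, minus strand. It had 509, 488.6 and 501.8 CPM in control and 827.9, 828.5 and 755.7 CPM in induced libraries. The groups did not overlap, as was the case for 68.6% of all genes tested, and Lama5 was 1.61-fold higher (log2 fold change 0.69, SE 0.05, edgeR adjusted p 2.85e-10).

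Lama4 encodes the alpha 4 chain, a short chain that lacks the N-terminal arm and is known from vessels, fat and peripheral nerve. It lies on chromosome 10, 38965515 to 39110188, plus strand. It had 187.6, 177.1 and 180.2 CPM in control and 61.3, 60.3 and 63.9 CPM in induced libraries. Each induced library held less than any control library, and Lama4 was 2.94-fold lower (log2 fold change -1.55, SE 0.05, edgeR adjusted p 1.25e-14). Of all genes tested, 4.01% had a lower log2 fold change than Lama4.

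Lama2, Lama3 and Lama1 were scarce in both groups. Lama2 encodes the alpha 2 chain of muscle basement membranes, whose loss causes a congenital muscular dystrophy. It lies on chromosome 10, 26980036 to 27619758, minus strand, and 3.86% of its exon bases overlap a gene on the opposite strand. It had 24, 10 and 22 reads in control and 48, 40 and 43 reads in induced libraries. The induced libraries were all higher, and the log2 fold change was 1.28 (SE 0.30, edgeR adjusted p 0.00102). Its mean of 2.30 CPM in induced cells was at percentile 17.0 of the tested genes.

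Lama3 encodes the alpha 3 chain of epithelial laminins. It had 1, 0 and 3 reads in control and 28, 17 and 17 reads in induced libraries. The ratio of pooled reads was 16.2 with a 95% exact binomial interval of 6.00 to 61.2, which covers counting error only. The fitted log2 fold change was 3.89 (SE 0.61, edgeR adjusted p 2.00e-05), and it was 5.11 without control replicate 3 and 3.35 without control replicate 2. Lama3 was tested only through the induced libraries, so that it had to differ in order to be tested. Of its exon bases, 1.83% overlap a gene on the opposite strand. Lama1 encodes the alpha 1 chain, which is typical of the early embryo (chromosome 17, 67697259 to 67822647, plus strand). It had 7 reads in control and 12 in induced libraries, a pooled ratio of 1.79 with a 95% exact binomial interval of 0.649 to 5.36, so that at these read numbers no difference could be detected.

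**Figure D2:**
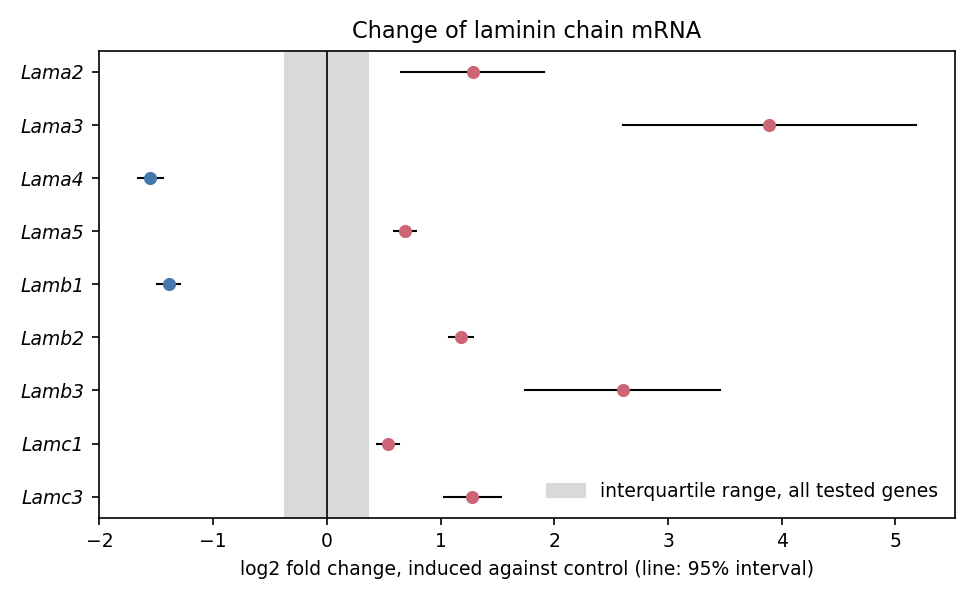
Log2 fold change of each tested laminin chain in induced against control cells, from edgeR over 3 libraries per group. Lines are 95% intervals, red points are higher and blue points lower, and the shaded band from -0.37 to 0.36 is the interquartile range of all tested genes. Lama4 (-1.55) and Lamb1 (-1.39) lie to the left of the band and the other chains shown to its right.

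The beta chains changed in opposite directions. Lamb1 encodes the beta 1 chain, which is broadly expressed from the embryo onwards. It lies on chromosome 12, 31265234 to 31329644, plus strand. It had 472.7, 449.2 and 460.8 CPM in control and 176.5, 183.2 and 167.6 CPM in induced libraries. No induced library reached the level of a control library, and Lamb1 was 2.62-fold lower (log2 fold change -1.39, SE 0.05, edgeR adjusted p 2.05e-14). Lamb2 encodes the beta 2 chain, known from the neuromuscular junction, the kidney glomerulus and mature vessel walls. It lies on chromosome 9, 108479736 to 108490530, plus strand. It had 234.8, 243.5 and 248.1 CPM in control and 580.6, 541.5 and 524.1 CPM in induced libraries. Here every induced library was above every control library, and Lamb2 was 2.27-fold higher (log2 fold change 1.18, SE 0.05, edgeR adjusted p 2.45e-13). Lamb3 encodes the beta 3 chain of epithelial laminins (chromosome 1, 193207699 to 193343878, plus strand). It had 10, 5 and 2 reads in control and 29, 37 and 35 reads in induced libraries. The log2 fold change was 2.60 (SE 0.41, edgeR adjusted p 1.88e-05), and 2.20 to 3.28 without one library. Lamb3 was tested only through the induced libraries, so that it had to differ in order to be tested.

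Beside Lama3 and Lamb3, of 6 surface epithelial markers Krt14 and Cdh1 were higher (4.62 and 1.93 on the log2 scale), with a list sum of 0.815 to 1.65 CPM in control and 12.9 to 18.3 CPM in induced libraries. With 9 to 10 reads of Krt14 and 6 to 23 reads of Cdh1, neither reached the filter in all 3 control libraries, so that both were tested through the induced libraries. Epcam, Krt5, Cldn4 and Esrp1 had 0 or 1 read in each library. The part of the Krt14 and Cdh1 rise in the level of Lama3 and Lamb3 was not tested.

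Because CpG sites are where mammalian DNA is methylated, the bases before the start sites of Lamb1 and Lamb2, the beta chains that changed in opposite directions, and of Lama5 are shown from RefSeq on GRCm38.p6, up to the first base that RefSeq or GENCODE counts as transcribed. CpG sites are in capitals, and each sequence runs 5′ to 3′ on the strand of its gene. The Lamb1 stretch is chr12:31265043-31265233 on the plus strand, the Lamb2 stretch chr9:108479612-108479735 on the plus strand and the Lama5 stretch chr2:180225860-180226109 on the minus strand.
Lamb1: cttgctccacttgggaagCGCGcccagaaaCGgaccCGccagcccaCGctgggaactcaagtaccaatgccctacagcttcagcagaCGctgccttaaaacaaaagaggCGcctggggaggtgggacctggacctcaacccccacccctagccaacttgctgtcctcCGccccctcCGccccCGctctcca
Lamb2: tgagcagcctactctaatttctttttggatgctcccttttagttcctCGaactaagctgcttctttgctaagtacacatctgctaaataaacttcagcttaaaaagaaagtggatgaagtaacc
Lama5: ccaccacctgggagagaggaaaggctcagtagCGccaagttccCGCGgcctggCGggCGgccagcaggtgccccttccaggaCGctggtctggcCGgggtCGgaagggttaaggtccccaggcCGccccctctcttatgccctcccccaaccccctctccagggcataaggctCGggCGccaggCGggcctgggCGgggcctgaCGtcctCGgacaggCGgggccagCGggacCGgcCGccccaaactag

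These stretches hold 10 CpG sites in 191 bases for Lamb1, 1 in 124 bases for Lamb2 and 19 in 250 bases for Lama5. Over the RefSeq windows of 300 bases, from 250 before to 50 after a start site, Lamb1 had 18 and Lama5 24 CpG sites, more than 70.3% and 80.0% of the 32851 windows in the table, whose median was 7. Lamb2 had 4, which exceeded 31.4% of windows, and Lama2 had 1. Lamb3 has a pair of windows with 2 and 5 CpG sites. The RefSeq windows of Lamb1, which fell, and of Lama5, which rose, held more CpG sites than the median, and that of Lamb2, which rose, held fewer. For Lamb1, Lamb2, Lama2 and Lamb3 the GENCODE gene begins before the RefSeq start, and windows on the GENCODE starts were not read. The Lama2 window and both Lamb3 windows lie wholly inside the GENCODE gene. Lamb3 begins at 193207699 in GENCODE and its first window at 193301744. Lama2, on the minus strand, begins at 27619758 and its window at 27617192. A link between CpG content and the changes was not tested. Windows were read for 5 of the 9 chains. Motifs were searched on both strands of these windows. GGGCGG, which itself holds a CpG, occurred 4 times in Lama5, 2 times in Lamb1 and 1 time in Lama2, and 35.7% of all windows hold it. The TATA motif TATAAA, which 13.6% of all windows hold, was not found in the windows of these chains. The same was true of the AP-1 motif TGANTCA, held by 7.81% of all windows, and of the interferon-stimulated response element, held by 3.44%. CpG methylation was not measured in these libraries.

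To set chains beside each other, reads were divided by gene length. The deposited gene length is the sum of all exon bases of a gene, retained introns included, and exceeds the longest protein-coding transcript 2.00-fold for Lama4 and 1.71-fold for Lamb1 1.08-fold for Lamb2 and 1.09-fold for Lamc1, while both lengths are equal for Lama5. By deposited FPKM the control order was Lamc1 (62.0 ± 1.04), Lamb1 (46.0 ± 1.23), Lama5 (43.5 ± 0.968), Lamb2 (39.4 ± 1.13) and Lama4 (14.9 ± 0.457), and the ranges of neighbours in this order did not overlap. Lamb1 and Lama5 came closest, at 44.8 to 47.2 and 42.4 to 44.3 FPKM. In induced cells it was Lamc1 (90.8 ± 4.86), Lamb2 (90.1 ± 4.80), Lama5 (70.5 ± 3.62), Lamb1 (17.7 ± 0.769) and Lama4 (5.12 ± 0.159), all SD with n = 3, where Lamc1 and Lamb2 overlapped. With the transcript length in place of the gene length, Lamb1 (78.9 FPKM) stood above Lamc1 (67.2 FPKM) in control cells, and the induced order was the same.

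Lama5 made up 74.1%, 74.5% and 74.6% of the alpha chain level per kilobase in control libraries and 93.1%, 93.3% and 92.3% in induced libraries. Lama4 made up 25.5 ± 0.250% in control and 6.76 ± 0.528% in induced libraries (SD, n = 3), and 40.6% and 12.6% with the transcript length. The other alpha chains together held well under 1% in every library. The ratio of Lama5 to Lama4 per kilobase went from 2.92 ± 0.0385 to 13.8 ± 1.11 (SD, n = 3), and with the transcript length from 1.46 to 6.91. The groups did not overlap for either share, and the two-sided exact permutation p was 0.1, the smallest that 3 libraries against 3 allow.

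Among beta chains, Lamb1 held 55.2%, 53.1% and 53.2% of the level per kilobase in control libraries and 15.7%, 17.1% and 16.3% in induced libraries. Lamb2 held 46.1 ± 1.22% in control and 83.4 ± 0.762% in induced libraries (SD, n = 3). The more abundant beta chain thus differed between the groups, and did so also with the transcript length, where Lamb2 held 35.0% and 76.0%. The ratio of Lamb2 to Lamb1 was 0.857 ± 0.0412 in control and 5.09 ± 0.272 in induced libraries (SD, n = 3), or 0.540 and 3.21 with the transcript length. The two-sided exact permutation p was again 0.1 for each share.

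**Figure D3:**
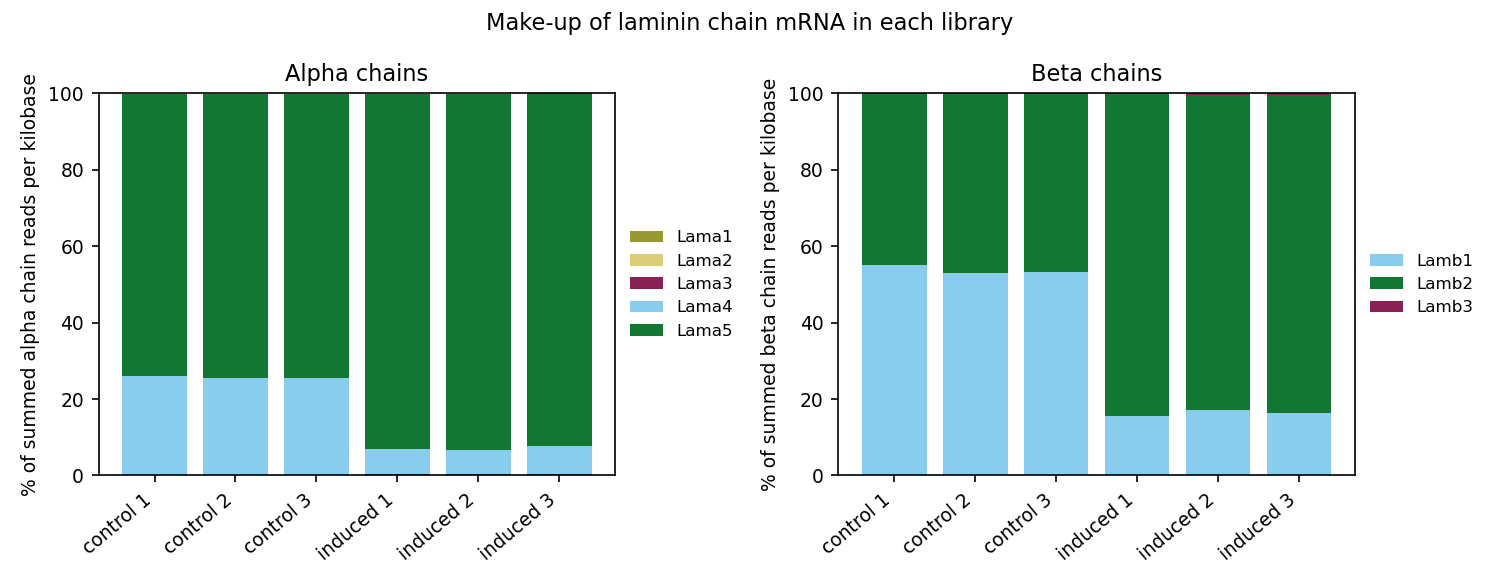
Share of each chain in the summed reads per kilobase of the alpha chains (left) and of the beta chains (right), one stacked bar per library, with deposited gene lengths. Lama5 fills 74.1% to 74.6% of the alpha bars in control and 92.3% to 93.3% in induced libraries, and Lamb2 goes from 46.1% to 83.4% of the beta bars on average.

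Since a molecule needs 1 chain of each class, the least abundant of its 3 mRNAs was taken for each trimer. For laminin-521 this value was 39.4 ± 1.13 FPKM in control cells, set by Lamb2, and 70.5 ± 3.62 FPKM in induced cells, set by Lama5 (SD, n = 3). For laminin-511 it was 43.5 ± 0.968 FPKM in control, set by Lama5, and 17.7 ± 0.769 FPKM in induced cells, set by Lamb1. For laminin-411 and laminin-421, both set by Lama4, it was 14.9 ± 0.457 and 5.12 ± 0.159 FPKM. With the transcript length, these values were 42.5 and 70.5 FPKM for laminin-521, 43.5 and 30.3 FPKM for laminin-511 and 29.8 and 10.2 FPKM for the laminins with Lama4, in control and induced cells. For laminin-521 the least abundant chain in control libraries was then Lama5 or Lamb2. All trimer values describe mRNA and not assembled protein, and the chains of one trimer share their values with the other trimers. Per kilobase, the summed alpha chains were 0.913 ± 0.00677 of the summed gamma chains in control and 0.805 ± 0.0263 in induced cells, and the beta chains 1.34 ± 0.0210 and 1.15 ± 0.0660 (SD, n = 3). The alpha to gamma ratio in control cells was 1.05 with the transcript length, so that which class is scarcer there depends on the length used.

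Laminins are held by integrins, which need an alpha and a beta subunit, by dystroglycan and by syndecans. Of 18 receptor genes and their direct partners, 17 were tested, of which 13 were higher, 2 lower and 2 not past the threshold. Over all genes tested, 32.6% were higher and 32.2% lower. The median log2 fold change of the list was 0.65, against -0.01 for all genes tested. Itga7, the laminin-binding integrin subunit of muscle, had the largest rise, with 8.68 ± 0.936 CPM in control and 139.4 ± 3.39 CPM in induced libraries (SD, n = 3), or 4.00 ± 0.07 (SE) on the log2 scale with an edgeR adjusted p of 4.02e-18. Itga6, the subunit that pairs with Itgb4 in epithelial anchoring complexes, fell most, from 9.55 ± 0.883 to 3.18 ± 0.252 CPM, a log2 fold change of -1.59, while Itgb4 had one of -0.09 (edgeR adjusted p 0.691). Itga3, a receptor subunit for laminins with alpha 3 and alpha 5, Itgb1, the common beta subunit, Dag1, which encodes dystroglycan, and Bcam, a receptor for alpha 5, rose by 0.96, 0.45, 0.65 and 1.20 on the log2 scale. Itgb4 and these 4 genes were picked after their values were seen. The other receptor gene called lower, the syndecan Sdc1, fell from 206 ± 6.63 to 109 ± 7.60 CPM (SD, n = 3). Its log2 fold change was -0.92, and Sdc1 too was named after its value was seen.

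Dystroglycan binds laminin through a sugar chain that a set of enzymes builds. Of 15 genes of this glycosylation, 14 were tested, of which 5 were higher, 3 lower and 6 not past the threshold. The shares over all genes tested were 32.6% higher and 32.2% lower. The median log2 fold change of the list was 0.05. Pomt1, which starts the chain, fell from 21.9 ± 1.12 to 14.4 ± 1.21 CPM (SD, n = 3), a log2 fold change of -0.61.

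Of 18 basement membrane partners, all tested, 12 were higher, 5 lower and 1 not past the threshold, with a median log2 fold change of 0.68. Over all genes tested, 32.6% were higher and 32.2% lower. Col4a3, a collagen IV chain of the kidney and lung, rose most, from 0.876 ± 0.0531 CPM in control to 45.5 ± 5.27 CPM (SD, n = 3), a log2 fold change of 5.69, and Col15a1 fell most, from 4.60 ± 0.600 to 0.595 ± 0.445 CPM (log2 fold change -2.93). With 3, 11 and 20 reads, Col15a1 did not reach the filter in every induced library, so that it was tested through the control libraries. The nidogens, which bind the gamma 1 chain, differed in direction, with log2 fold changes of -1.06 for Nid1 and 0.63 for Nid2 (adjusted p of edgeR 2.55e-12 and 7.32e-10). Hspg2, which encodes perlecan, and Agrn, which encodes agrin, a proteoglycan that binds laminin, rose by 0.30 and 1.21. The nidogens and both proteoglycans were named after their values were seen.

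Of 10 proteases that cut laminin chains or act on their processing, 8 were tested, with 3 higher, 4 lower and 1 not past the threshold. The shares over all genes tested were 32.6% higher and 32.2% lower. The median log2 fold change of the list was -0.12. Mmp3, a matrix metalloprotease, rose from 1337 ± 35.1 to 2208 ± 122 CPM, and Tll1, a relative of Bmp1 that cleaves matrix precursors, fell from 2.97 ± 0.898 to 0.123 ± 0.0314 CPM (SD, n = 3), with 7 reads in induced libraries. Tll1, one of the 4 called lower, passed the filter only through the control libraries, so that it had to differ in order to be tested. Bmp1 itself, named after its value was seen, had a log2 fold change of -0.62.

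**Figure D4:**
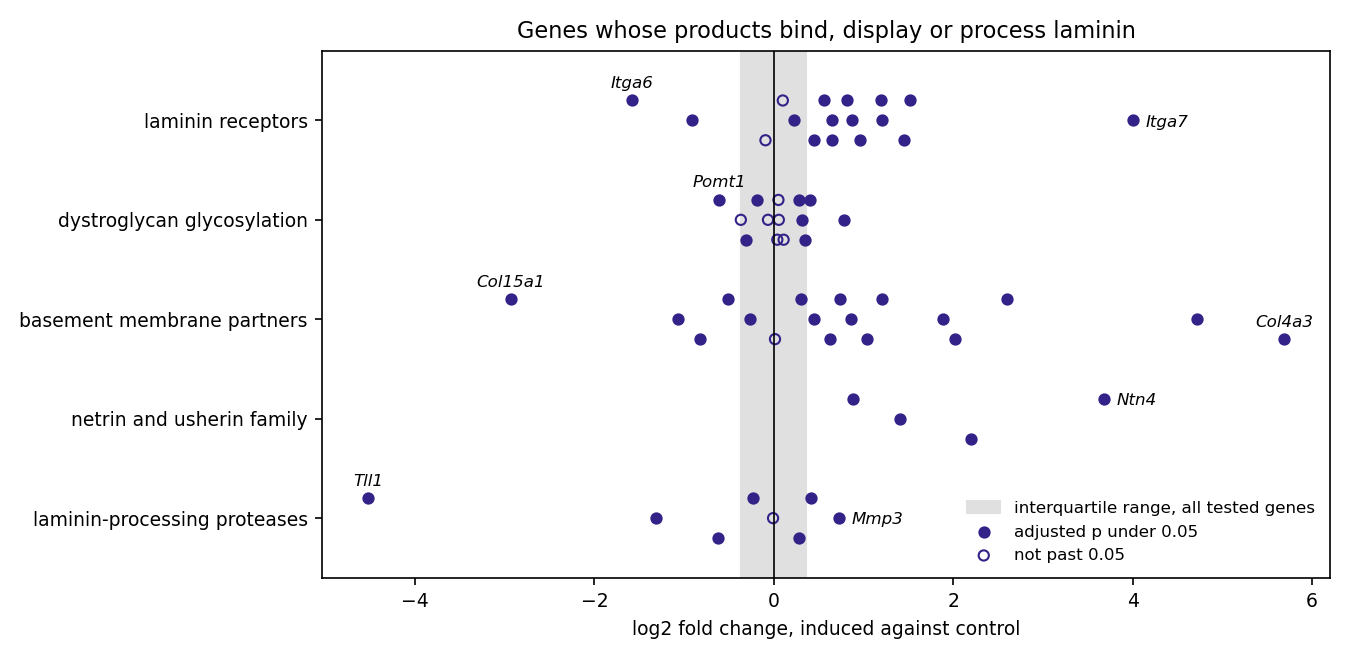
Log2 fold change in induced against control cells for the tested genes of 5 lists, one point per gene (filled, edgeR adjusted p under 0.05, open, not past it), spread vertically within a list for legibility. The shaded band is the interquartile range of all tested genes, and genes with the largest rise or fall of a list are named, as far as reported. Itga7 (4.00) and Col4a3 (5.69) lie farthest right in their lists and Itga6 (-1.59) and Col15a1 (-2.93) farthest left.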

How the data were processed

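Raw read counts per gene and library were deposited by the authors as whole numbers, beside FPKM values that the authors derived from them per kilobase of gene length, and the deposited gene length itself. Per the labels, the processing notes name HISAT2 2.0.5, featureCounts 1.5.0-p3, DESeq2 1.16.1 and the build mm10, and libraries were made with a NEBNext Ultra kit. The strand setting is not given in the sources used here. The table also holds the authors' own fold changes and p-values, and the Gene Ontology tables hold theirs, and none were used. The 11 laminin genes had the coordinates of GENCODE M21 (GRCm38), and their deposited lengths equalled the summed exon bases there.

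The counts went into edgeR 4.0.16 under R 4.3.3. The filter was filterByExpr (minimum count 10, minimum total 15), libraries were scaled by TMM, and induced libraries were compared with control libraries by the two-sided quasi-likelihood test, with p-values adjusted by Benjamini-Hochberg over all 14246 genes tested and a threshold of 0.05. Levels are TMM-scaled CPM. Standard errors were derived as log2 fold change over the root of F. Shares and ratios of chains used reads per kilobase within a library and two-sided exact permutation tests. A count of 0 allows up to 0.151 to 0.158 CPM, taking 3 counts as the limit. Libraries of one group differed by more than sampling noise (chi-square per degree of freedom 2.56 to 8.91), and none were merged. The fit was tested on simulated data. The laminin chains and all gene lists were chosen with earlier results of these data known. Named genes are the chains, other gamma chains and, per partner list with at least 4 tested members, the largest called rise and fall of at least 1 CPM. Further partners are marked as named later. Some results under this rule are not reported here.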

Additional observations from a re-analysis of the deposited data

How the results depend on the processing

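All 129 values of 10 tested chains under 13 alternatives (no filter, a stricter filter, scaling by total counts or by median ratios, DESeq2 1.42.0, the replicate number as block, a threshold of 0.01, and dropping any of the 6 libraries) kept their direction and their side of the threshold, as far as the chain was tested, and Lama3 was not tested under the stricter filter. All 156 counts for partner lists stayed within 1.5 times. The genes called over the whole table numbered 8514 to 9348 without one library. Same-numbered libraries did not deviate together (correlations 0.00, -0.01 and 0.03), and with the replicate block 9063 genes and 8 laminin chains were called, against 9225 and 8 without it. Library totals alone moved the median log2 fold change of all genes from -0.01 to -0.04.

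Shares and ratios of chains moved by more than the spread between replicates with the length by which reads are divided, and less without one library. Induced minus control, in percentage points, the share of Lama5 was 18.5, of Lama4 -18.7, of Lamb2 37.2 and of Lamb1 -37.4 with the deposited length. Without division by length these were 19.2, -19.5, 41.1 and -41.3, and with the longest protein-coding transcript, chosen after the data were seen, 27.7, -27.9, 41.0 and -41.2. The difference in the alpha to gamma ratio was -0.108 with the deposited length, -0.161 without length and -0.259 with the transcript, and in the beta to gamma ratio -0.189, -0.384 and -0.491. Without one library these 6 differences were 18.3 to 18.8, -19.0 to -18.6, 36.5 to 37.6, -37.8 to -36.8, -0.122 to -0.0957 and -0.220 to -0.154. A coding length from RefSeq proteins was not run.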

Other observations

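Netrins and their relatives share the N-terminal arm domains of laminin short arms, and netrin 4 binds laminin directly. Of 8 genes of this family listed, 4 were tested and all 4 were higher in induced cells, where 32.6% of all genes tested were higher. Ntn4 had 1.43 ± 0.394 CPM in control and 18.5 ± 0.825 CPM in induced libraries (SD, n = 3), a rise of 3.69 ± 0.15 (SE) on the log2 scale with an edgeR adjusted p of 2.74e-13, and Megf9, Ntng2 and Ntn1 rose by 2.20, 1.41 and 0.88 on the log2 scale.

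The nearest tested genes beside Lamb2, Lama5, Lamb1 and Lama4 did not move with them by the same amount. Usp19, 0.072 kb from Lamb2, had a log2 fold change of 0.09 (edgeR adjusted p 0.105) beside 1.18 for Lamb2. Adrm1, 0.087 kb from Lama5, rose by 0.27 (edgeR adjusted p 0.000284) beside 0.69. Dld, 1.63 kb from Lamb1, had a log2 fold change of -0.14 (edgeR adjusted p 0.0316) beside -1.39. Fam229b, 8.62 kb from Lama4, had one of -0.31 (edgeR adjusted p 0.275) beside -1.55. These neighbours lie beyond the 3′ ends of the laminin genes. On the side of the gene starts, Ccdc71 (13.8 kb from Lamb2) and Rps21 (31.5 kb from Lama5) had log2 fold changes of -0.23 and -0.38. Gm32443 (175 kb from Lamb1) had 2.40 and 5930403N24Rik (1814 kb from Lama4) -1.19.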
